A study of Mus musculus with 12 samples.

Results

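The RNA of mouse fibroblasts that expressed a myogenic factor was compared with that of the same fibroblasts expressing a fluorescent protein alone. The 3 factors, MyoD, Myf5 and myogenin, were treated as 1 condition: the mean of their 3 group means, each counted equally, was set against hrGFP, and each probe set was then asked whether it moved the same way with every factor. All 12 arrays of the series entered the comparison, 9 with a factor and 3 with hrGFP. Of the 12488 probe sets on the array, the 66 manufacturer's controls were left out and 12422 were tested, so the members were chosen by the samples and not by their values.

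The cells were the 2C5/7 line, derived from embryonic fibroblasts, and all 4 groups shared the loss of functional myoD and myf5 genes. A retrovirus made MyoD (replicates 3, 4 and 5), Myf5 (3, 4 and 5) or myogenin (2, 3 and 6) from the viral promoter. The same transcript gave hrGFP from an internal ribosome entry site. The hrGFP group (3, 4 and 5) carried hrGFP and no factor. Cells grew adherent in medium with 10% fetal calf serum and were sorted for green fluorescence to an estimated purity of 75 to 85% without cloning, so each group is a mixed population and not 1 clone. The labels name myogenin and hrGFP as the controls for MyoD and Myf5. Nothing in them says that replicates were separate cultures, so the p-values measure only the spread between these samples, which may be technical.

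MyoD, Myf5 and myogenin are basic helix-loop-helix proteins that pair with E proteins and bind the E-box, CANNTG, in the control regions of muscle genes. In the embryo Myf5 and MyoD commit cells to the muscle lineage, and myogenin acts later, when myoblasts fuse and build the contractile apparatus. Put into fibroblasts, such factors are known to switch on muscle genes, and serum in the medium is known to hold back terminal differentiation.

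Signals are given after quantile normalization, on the scale of the deposited intensities. A difference is the mean of the 3 factors minus hrGFP on the log2(signal + 6.3) scale, ± its standard error, and its fold is taken from that scale, which understates the change of dim probe sets. On 2 arrays, MyoD 5 and hrGFP 5, the labelled RNA was 3'-biased: the ratio of 3' to 5' control signal was 25.7 and 37.6 for beta-actin and 32.4 and 33 for Gapdh, against 0.968 to 1.11 and 0.786 to 1.03 on the other 10 arrays. The test of the mean of the 3 factors was therefore repeated without that pair, with those of every factor and among factors. Chip lot and day of hybridization divided the arrays into 3 batches: the first held the arrays numbered 3 and 4 of hrGFP, MyoD and Myf5, the second their arrays numbered 5, and the third all of myogenin, so for myogenin batch and group cannot be told apart. Of the 11 fibroblast markers, 8 were above a signal of 15 on all 12 arrays, Col1a1, Col1a2 and Col3a1 among them, and the summed marker signal was 6728 to 12723 with a factor and 8009 to 10196 with hrGFP.

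Few probe sets moved with all 3 factors, and of the 9 called that carry 1 gene name, 7 are genes known from muscle. Of 12422 probe sets, 13 (0.105%) were called at an adjusted p under 0.05 (631, or 5.08%, had an unadjusted p under 0.05), 11 higher (0.0886%) and 2 lower (0.0161%) with the factors. In all 13 the 3 differences had the same sign, which 46.3% of all probe sets showed, and in 12 (0.0966%) all 9 factor arrays also lay on one side of the 3 hrGFP arrays, 10 above and 2 below. Over the whole array 103 probe sets (0.829%) showed such a separation, 53 (0.427%) with all 9 above and 50 (0.403%) with all 9 below. The 13 were called on the mean of the 3 factors over these same arrays. That choice favours both a shared sign and separation, so neither is separate support. The higher genes were Chrnb1, Acta1, Tnnc1, Tnnt3, Mylpf, Itga7 and Mcpt8, with Actc1 called but overlapping. A stricter demand was that each factor pass on its own, with the largest of its 3 p-values adjusted over the array. Under it 1 probe set remained (0.00805%), Chrnb1, with an adjusted p of 0.00578. Chrnb1 did not meet this demand without normalization, nor with replicate number as a block. In that block numbers 2 and 6 each held only a myogenin array, so myogenin rested on myogenin 3 alone. Leaving out hrGFP 4 lowered the 11 higher calls to 5, leaving out MyoD 5 gave 19, and leaving out hrGFP 3 gave 8 lower calls in place of 2.

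**Figure D1:**
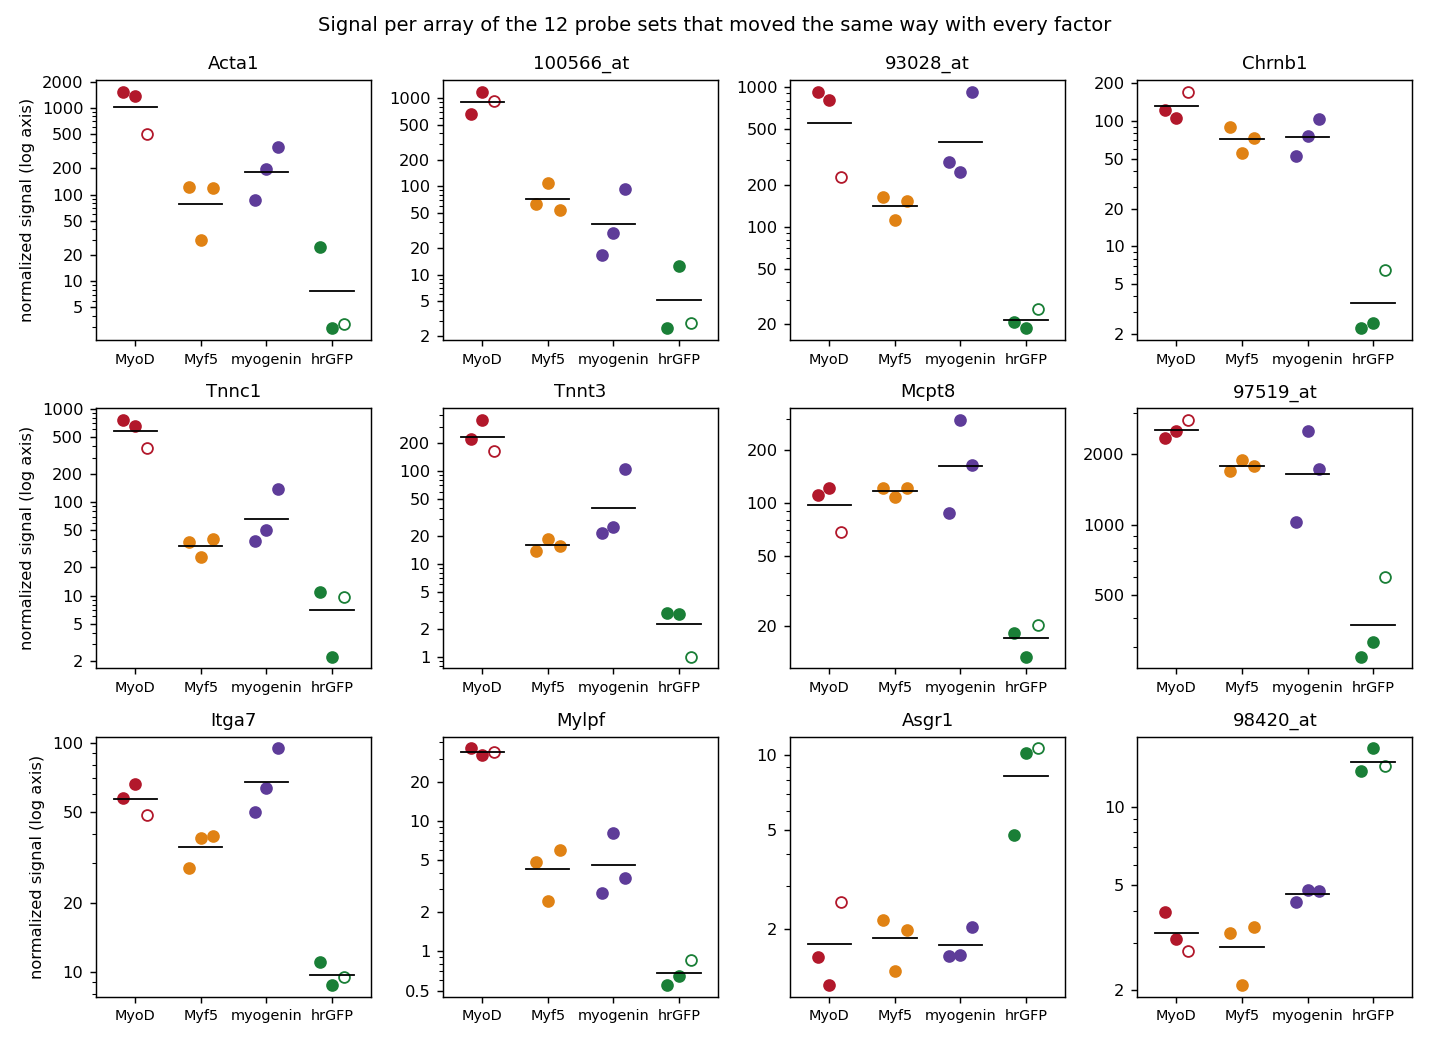
Quantile-normalized signal on a log axis for each array, in the order MyoD, Myf5, myogenin and hrGFP, for the 12 probe sets that were called and in which the 9 factor arrays did not overlap the 3 hrGFP arrays. Points are arrays, lines are group means taken on the log2(signal + 6.3) scale, and open points are MyoD 5 and hrGFP 5; 10 probe sets lie above hrGFP with every factor, and Asgr1 and 98420_at lie below.

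The 250 bases before the start of 4 of the higher genes are shown because the factors bind E-boxes; capitals mark each CANNTG, and coordinates are those of RefSeq on GRCm38.p6.
Chrnb1: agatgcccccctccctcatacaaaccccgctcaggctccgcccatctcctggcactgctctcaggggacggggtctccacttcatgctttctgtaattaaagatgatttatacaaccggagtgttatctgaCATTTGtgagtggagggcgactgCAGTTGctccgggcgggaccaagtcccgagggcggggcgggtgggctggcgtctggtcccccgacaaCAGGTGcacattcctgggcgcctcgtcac
Mcpt8: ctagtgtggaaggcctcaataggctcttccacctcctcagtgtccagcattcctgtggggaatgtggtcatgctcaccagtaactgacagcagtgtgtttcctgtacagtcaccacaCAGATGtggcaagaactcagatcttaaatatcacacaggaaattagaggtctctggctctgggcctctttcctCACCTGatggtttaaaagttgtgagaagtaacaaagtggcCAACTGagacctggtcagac
Tnnc1: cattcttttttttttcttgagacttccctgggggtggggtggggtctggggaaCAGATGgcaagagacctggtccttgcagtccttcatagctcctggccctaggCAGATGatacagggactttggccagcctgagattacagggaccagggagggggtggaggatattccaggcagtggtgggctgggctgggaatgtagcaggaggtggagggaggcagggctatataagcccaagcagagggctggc
Acta1: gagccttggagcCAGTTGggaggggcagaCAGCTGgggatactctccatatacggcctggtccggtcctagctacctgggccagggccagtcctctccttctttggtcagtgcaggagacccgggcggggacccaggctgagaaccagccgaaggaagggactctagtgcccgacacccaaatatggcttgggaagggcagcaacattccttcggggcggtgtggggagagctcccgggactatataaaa
These lie at chr11:69795938-69796187, strand minus, for Chrnb1; chr14:56085198-56085447, strand minus, for Mcpt8; chr14:31208062-31208311, strand plus, for Tnnc1; and chr8:123894776-123895025, strand minus, for Acta1. Chrnb1 and Mcpt8 each held 3 CANNTG, a number or more that 12.2% of 32851 RefSeq windows of this length held, and Tnnc1 and Acta1 each held 2, which 31.8% reached. A CACCTG on either strand, which lies within CANNTG, stood 29 bases before the start of Chrnb1, read there as CAGGTG, and 60 bases before that of Mcpt8; 17.2% of all windows held one. The palindrome CAGCTG, also within CANNTG, was found once in the Acta1 window, 221 bases before the start, and once in that of Mylpf, 51 bases before it, and 13% of all windows held it. Both CANNTG of Tnnc1 read CAGATG, and the window of Actc1 held no CANNTG. With 66.2% of all windows holding at least 1 CANNTG, these matches describe the letters and do not show binding.

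Chrnb1, the beta subunit of the muscle acetylcholine receptor, gave the smallest p and rose with each factor. Its signals were 123, 106 and 172 in MyoD cells, 89, 55.7 and 73.9 in Myf5 cells and 52.9, 75.8 and 103 in myogenin cells. The hrGFP arrays read 2.23, 2.44 and 6.45. The 9 factor arrays all lay at least several times above the brightest hrGFP array, which was the 3'-biased hrGFP 5. The difference was 3.28 ± 0.25, a 9.71-fold rise (adjusted p = 0.000213), made up of 3.81 ± 0.31 for MyoD, 2.99 ± 0.31 for Myf5 and 3.04 ± 0.31 for myogenin. The test among the 3 factors gave an adjusted p of 0.538, and MyoD minus Myf5 was 0.82 (95% interval 0.15 to 1.49). MyoD minus myogenin was 0.76 (95% interval 0.09 to 1.43), and both of these unadjusted intervals lie above 0. Without MyoD 5 and hrGFP 5 the difference was 3.37 (adjusted p = 0.00045), and Chrnb1 was called under each of the 27 alternatives.

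The other subunits of the muscle receptor described here did not pass over 12 arrays. Chrng, the gamma subunit of the fetal receptor, had, on the brighter of its probe sets, 95639_at, 186, 257 and 9.08 in MyoD cells, 19.6, 46.5 and 23.3 in Myf5 cells and 66.6, 79.5 and 169 in myogenin cells. In hrGFP cells they were 4.80, 12.9 and 8.17. On MyoD 5 the signal was near that of hrGFP, while the other 2 MyoD arrays were the brightest of the 12. The difference of 2.24 ± 0.68 did not pass (adjusted p = 0.621); leaving out MyoD 5 and hrGFP 5 gave 2.62, which passed (adjusted p = 0.0228). A second Chrng probe set, 161215_at, differed by 1.86 ± 0.33 (adjusted p = 0.0815). Chrna1, the alpha subunit that binds acetylcholine, had signals of 34.6 to 43.3 in MyoD cells, 1.97 to 8.32 in Myf5 cells, 3.77 to 11.9 in myogenin cells and 1.62 to 2.46 in hrGFP cells; its difference of 1.15 ± 0.23 did not pass (adjusted p = 0.133), and it differed among the factors (adjusted p = 0.00998), with 2.45 for MyoD, 0.28 for Myf5 and 0.72 for myogenin. Of the 11 neuromuscular junction genes measured, 1 was called, Chrnb1, 4 were higher and 0 lower at an unadjusted p under 0.05, and the median difference was 0.40, against -0.01 over all 8251 genes. Of those, 6 (0.0727%) were called, and 2.34% were higher and 2.29% lower at an unadjusted p under 0.05, the background for every list.

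The called contractile genes were higher on average with every factor, by very unequal amounts. Acta1, skeletal muscle actin, had signals of 1536, 1372 and 502 in MyoD cells, 123, 30.2 and 117 in Myf5 cells and 85.5, 198 and 354 in myogenin cells. The signals with hrGFP alone were 25, 2.90 and 3.22. The dimmest factor array, Myf5 4, was close to the brightest hrGFP array, hrGFP 3, and the other 2 hrGFP arrays were dim. The difference of 4.18 ± 0.55 was the largest among the called probe sets, 18.1-fold (adjusted p = 0.00776), with 6.20 ± 0.67 for MyoD, 2.58 ± 0.67 for Myf5 and 3.76 ± 0.67 for myogenin. The spread among factors did not pass (adjusted p = 0.118).

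Tnnc1, the calcium-binding troponin subunit of slow and cardiac muscle, had 756, 660.2 and 382 in MyoD cells, 37.1, 25.8 and 39.9 in Myf5 cells and 38.6, 50.3 and 139 in myogenin cells. With hrGFP the arrays gave 10.8, 2.22 and 9.58. Its difference was 3.17 ± 0.36, 8.97-fold (adjusted p = 0.00402), and the factors differed (adjusted p = 0.00518), with 5.46 ± 0.44 for MyoD, 1.60 ± 0.44 for Myf5 and 2.44 ± 0.44 for myogenin. MyoD minus Myf5 was 3.86 (95% interval 2.90 to 4.82), whereas myogenin minus Myf5 was 0.84 (95% interval -0.12 to 1.80). Tnnt3, the tropomyosin-binding troponin of fast muscle, had 218, 353 and 166 in MyoD cells, 13.7, 18.6 and 15.6 in Myf5 cells and 21.6, 24.8 and 106 in myogenin cells. The hrGFP arrays read 2.93, 2.88 and 1.01. All hrGFP arrays were near the bottom of the scale, and myogenin 6 was several times brighter than the other 2 myogenin arrays. The difference for Tnnt3 was 2.88 ± 0.38, 7.35-fold (adjusted p = 0.00834), with 4.82 ± 0.47 for MyoD, 1.38 ± 0.47 for Myf5 and 2.43 ± 0.47 for myogenin (adjusted p among factors = 0.0202).

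Mylpf, the phosphorylatable light chain of fast myosin, had, on the called probe set 162101_f_at, 35.8, 31.7 and 33.7 in MyoD cells, 4.87, 2.43 and 5.93 in Myf5 cells and 2.81, 8.08 and 3.63 in myogenin cells. In hrGFP cells they were 0.551, 0.650 and 0.860. Only the MyoD arrays rose above a signal of 15, and the Myf5 and myogenin arrays lay just above hrGFP. Its difference was 1.25 ± 0.18, 2.39-fold (adjusted p = 0.013), and MyoD stood apart from the other factors (adjusted p among factors = 0.00463), with 2.52 ± 0.22 for MyoD, 0.60 ± 0.22 for Myf5 and 0.64 ± 0.22 for myogenin. The brighter Mylpf probe set, 92881_at, gave nearly the same mean difference, 1.27 ± 0.30, which did not pass (adjusted p = 0.355). By factor it did not match, with 2.29 for MyoD, 0.07 for Myf5 and 1.44 for myogenin. Its groups overlapped, with 125 to 169 in MyoD cells, 13.5 to 42.1 in Myf5 cells, 59 to 135 in myogenin cells and 22.4 to 32.2 in hrGFP cells. Actc1 is cardiac actin, also made by embryonic skeletal muscle. On the called probe set 101028_i_at it had 519, 424 and 216 in MyoD cells, 10.4, 12.3 and 4.51 in Myf5 cells and 10.4, 9.21 and 51.4 in myogenin cells. The signals with hrGFP alone were 6.11, 0.632 and 0.443. Its dimmest Myf5 array, Myf5 5, was below hrGFP 3, so the groups overlapped. The difference of 2.63 ± 0.42 (adjusted p = 0.0378) came with 5.47 ± 0.51 for MyoD, 0.84 ± 0.51 for Myf5 and 1.56 ± 0.51 for myogenin (adjusted p among factors = 0.00477). It did not pass without MyoD 5 and hrGFP 5 (adjusted p = 0.0829), nor did that of Mylpf on 162101_f_at (adjusted p = 0.0677). The Mylpf call was also lost with replicate number as a block (adjusted p = 0.0685). A brighter Actc1 probe set, which stands for the gene in the sarcomere list, was not called.

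**Figure D2:**
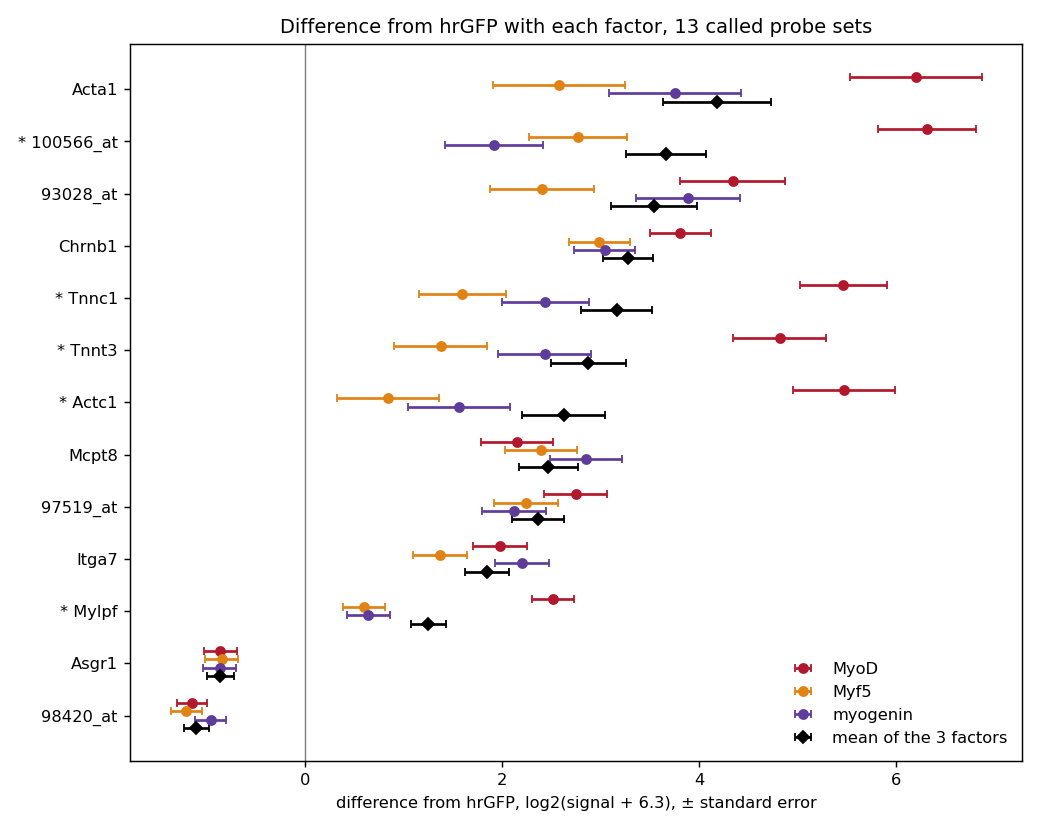
Difference from hrGFP on the log2(signal + 6.3) scale, ± standard error (n = 3 arrays per group), with MyoD, Myf5 and myogenin and for their mean, for the 13 called probe sets. A star marks the 5 that differed among the factors; in each of these MyoD lies far to the right of the other 2 factors, and the other 8 did not pass that test.

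Counted over the list of 34 measured sarcomere genes, 3 were called, Acta1, Tnnc1 and Tnnt3 (Mylpf and Actc1 are represented there by brighter probe sets), 15 were higher and 1 lower at an unadjusted p under 0.05, and in 5 all 9 factor arrays lay above hrGFP, which 0.448% of all genes showed. The median difference of the list was 0.54, with 0.80 for MyoD, 0.09 for Myf5 and 0.52 for myogenin. Myl4, an embryonic myosin light chain, did not pass on its brighter probe set, 160487_at, at 4.01 for MyoD, 0.64 for Myf5 and 2.45 for myogenin (adjusted p for the mean = 0.133). A second Myl4 probe set, 100828_at, was highest with myogenin, with 43.4 to 85.7 in MyoD cells, 38.8 to 45.2 in Myf5 cells, 73.1 to 108 in myogenin cells and 16.7 to 35.3 in hrGFP cells, and did not pass either (adjusted p = 0.401). The list on muscle calcium handling had a median of 0.53 and 0 of 12 called, with 3 higher at an unadjusted p under 0.05, and Ryr1, the calcium release channel of skeletal muscle, differed by 1.12 ± 0.30 (adjusted p = 0.504). The median for muscle energy metabolism was 0.32, and 0 of 14 were called, with 2 higher at an unadjusted p under 0.05; Eno3, the muscle enolase, had 229 to 658 in MyoD cells, 198 to 253 in Myf5 cells, 266 to 369 in myogenin cells and 57.4 to 132 in hrGFP cells and a difference of 1.58 ± 0.30 (adjusted p = 0.105), and it passed at 1.32 without MyoD 5 and hrGFP 5 (adjusted p = 0.0228).

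Itga7, the integrin subunit that anchors muscle cells to laminin, was higher with each factor. Its signals on 161497_f_at were 57.5, 65.8 and 48.3 in MyoD cells, 28.5, 38.3 and 39.3 in Myf5 cells and 50.1, 63.8 and 94.6 in myogenin cells. With hrGFP the arrays gave 11, 8.74 and 9.43. Every factor array lay well above the brightest hrGFP array. The difference was 1.85 ± 0.22, 3.61-fold (adjusted p = 0.00434), with 1.98 ± 0.27 for MyoD, 1.37 ± 0.27 for Myf5 and 2.20 ± 0.27 for myogenin. The test among factors did not pass (adjusted p = 0.486), although the unadjusted intervals of MyoD minus Myf5, 0.61 (95% interval 0.02 to 1.20), and of myogenin minus Myf5, 0.83 (95% interval 0.24 to 1.42), lay above 0. The difference was 1.85 without MyoD 5 and hrGFP 5 (adjusted p = 0.0172). A second Itga7 probe set, 93061_at, gave 1.60 ± 0.41 and did not pass (adjusted p = 0.453); hrGFP 4 read 34.1 while hrGFP 3 and 5 read 4.73 and 5.96. Another, 160086_at, differed by 0.08 ± 0.12 (adjusted p = 0.95). Of 19 measured genes of myoblast adhesion and the dystrophin complex, Itga7 alone was called, and the median difference was 0.13.

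Mcpt8, a serine protease known from basophils and not as a muscle gene, had 111, 122 and 68.9 in MyoD cells, 121, 108 and 123 in Myf5 cells and 87.6, 296 and 164 in myogenin cells. The hrGFP arrays read 18.2, 13.5 and 20.2. Myogenin 3 was the brightest array and MyoD 5 the dimmest with a factor, and all 9 lay well above hrGFP. The difference was 2.47 ± 0.30, 5.54-fold (adjusted p = 0.00434), with 2.16 ± 0.37 for MyoD, 2.40 ± 0.37 for Myf5 and 2.85 ± 0.37 for myogenin, and the test among factors did not pass (adjusted p = 0.726); MyoD minus myogenin was -0.70 (95% interval -1.50 to 0.10). Gzmd, a granzyme of cytotoxic lymphocytes, lies near Mcpt8 on chromosome 14 with 2 protein-coding genes between them, Ctsg and Gzme. Its signals were 26.6, 26 and 15.4 in MyoD cells, 20.2, 22.1 and 31 in Myf5 cells and 18.7, 110.0 and 84.9 in myogenin cells. In hrGFP cells they were 2.05, 2.32 and 4.80. Here too the 9 factor arrays did not overlap hrGFP. The Gzmd difference of 2.04 ± 0.39 did not pass (adjusted p = 0.105), and near-identical granzymes may share its probes.

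No other gene listed for such cells was called. In the list of 18 measured mast cell, basophil and cytotoxic lymphocyte genes, 1 was called, the median difference was -0.06, and 3 were higher and 1 lower at an unadjusted p under 0.05. Of the 7 defining markers measured, Fcer1a, Ms4a2 and Kit stayed at or under a signal of 15 on all 12 arrays and 0 were above it on all 12. Their summed signal was 37.8 to 79.6 with a factor and 60.2 to 67.1 with hrGFP.

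Of the called probe sets, 4 carry no single gene name. The annotation used gives Tmem119 and Igfbp5 for 100566_at, and Mir675 and H19 for 93028_at. It does not list 97519_at and 98420_at. Probe set 97519_at was the brightest of the 13, with 2339, 2509 and 2804 in MyoD cells, 1701, 1895 and 1781 in Myf5 cells and 1024, 2509 and 1738 in myogenin cells. The signals with hrGFP alone were 274, 315 and 601. Its difference was 2.37 ± 0.26, 5.17-fold (adjusted p = 0.00402), with 2.75 ± 0.32 for MyoD, 2.24 ± 0.32 for Myf5 and 2.12 ± 0.32 for myogenin (adjusted p among factors = 0.71). Probe set 93028_at had 928, 810.3 and 227 in MyoD cells, 164, 112 and 153 in Myf5 cells and 291, 247 and 914 in myogenin cells. With hrGFP the arrays gave 20.7, 18.8 and 25.5. The difference was 3.54 ± 0.43 (adjusted p = 0.00434). It was higher than hrGFP by 4.34 ± 0.53 for MyoD, 2.41 ± 0.53 for Myf5 and 3.89 ± 0.53 for myogenin. Probe set 100566_at had 669, 1191 and 923 in MyoD cells, 63.5, 109 and 53.7 in Myf5 cells and 16.9, 29.3 and 93.1 in myogenin cells. The hrGFP arrays read 2.48, 12.6 and 2.81. It differed by 3.67 ± 0.41 (adjusted p = 0.00402), and the rise was unequal (adjusted p among factors = 0.00518), with 6.31 ± 0.50 for MyoD, 2.77 ± 0.50 for Myf5 and 1.92 ± 0.50 for myogenin.

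The probe sets called lower were 98420_at and Asgr1. Probe set 98420_at had 3.95, 3.13 and 2.81 in MyoD cells, 3.28, 2.08 and 3.46 in Myf5 cells and 4.32, 4.81 and 4.77 in myogenin cells. In hrGFP cells they were 13.7, 16.7 and 14.3. Its difference was -1.10 ± 0.13 (adjusted p = 0.00412), and the call was lost with replicate number as a block (adjusted p = 0.146). Asgr1, a subunit of the liver receptor for desialylated glycoproteins, had 1.56, 1.20 and 2.57 in MyoD cells, 2.19, 1.37 and 1.99 in Myf5 cells and 1.56, 1.57 and 2.05 in myogenin cells. The signals with hrGFP alone were 4.81, 10.2 and 10.7. Its difference was -0.85 ± 0.14 (adjusted p = 0.0378). For both probe sets every group mean was under a signal of 15, where the array measures least well, and with no pseudocount the differences were -2.08 and -2.21. The falls of Asgr1 were -0.86 ± 0.17 for MyoD, -0.84 ± 0.17 for Myf5 and -0.86 ± 0.17 for myogenin (adjusted p among factors = 0.998), but the call was lost without MyoD 5 and hrGFP 5 (adjusted p = 0.123) and under 20 of the 26 alternatives that tested it. Among uncalled genes, the 5 whose 9 factor arrays all lay below hrGFP with the largest falls were Tmem141, Tpsb2, Znrf2, Gpr37 and Cavin3, of which Gpr37 had every group mean under a signal of 15. Cavin3, a protein of caveolae, had 61.6 to 133 in MyoD cells, 79.3 to 104 in Myf5 cells, 55.3 to 111 in myogenin cells and 147 to 272 in hrGFP cells, a difference of -1.01 ± 0.28 (adjusted p = 0.567). Pdgfra, a growth factor receptor of fibroblasts, differed by -0.96 ± 0.24 (adjusted p = 0.401), with 179 to 248 in MyoD cells, 99.6 to 171 in Myf5 cells, 178 to 260.3 in myogenin cells and 229 to 478 in hrGFP cells. Over the 38 fibroblast and extracellular matrix genes measured 0 were called, 2 were higher and 3 lower at an unadjusted p under 0.05, and the median difference was 0.18.

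At an unadjusted p under 0.05 with each of the 3 factors, 31 probe sets (0.25%) were higher and 35 (0.282%) lower. Among the genes that missed the threshold for the mean of the 3 factors were Id2, Runx1, Inhbb and Igf2, named after their values were seen. Id2, a helix-loop-helix inhibitor that captures E proteins, had 526 to 612 in MyoD cells, 364 to 444 in Myf5 cells, 304 to 591 in myogenin cells and 123 to 266 in hrGFP cells and differed by 1.32 ± 0.23 (adjusted p = 0.0815). Runx1, a transcription factor known to rise in denervated muscle, differed by 1.89 ± 0.35 (adjusted p = 0.0857), with 2.11 for MyoD, 1.65 for Myf5 and 1.92 for myogenin. Inhbb, the beta-B subunit of inhibin and activin, differed by 1.44 ± 0.27 (adjusted p = 0.0857). Igf2, a fetal growth factor, had 35.5 to 85.9 in MyoD cells, 36.6 to 66.6 in Myf5 cells, 128 to 286 in myogenin cells and 20.7 to 25.2 in hrGFP cells and differed by 1.58 ± 0.29 (adjusted p = 0.0857), most with myogenin. In each of these 4 the 9 factor arrays lay above hrGFP. Id1 and Id3, relatives of Id2, differed by 0.82 ± 0.47 and 0.62 ± 0.36, and neither passed (adjusted p = 0.945 for both).

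The factors' own genes were read as follows. Myog had 501, 511 and 136 in MyoD cells, 74.2, 66.4 and 75.3 in Myf5 cells and 88.5, 71.5 and 125 in myogenin cells. With hrGFP the arrays gave 21.2, 55.8 and 49.3. All 9 factor arrays lay above hrGFP, and MyoD 3 and 4 were far brighter than the 3 myogenin arrays. Its difference of 1.59 ± 0.38 did not pass (adjusted p = 0.352), with 2.87 for MyoD, 0.78 for Myf5 and 1.12 for myogenin; leaving out MyoD 5 and hrGFP 5 gave 1.88, which passed (adjusted p = 0.0237). Myod1 had 41.1 to 63.1 in MyoD cells, 39.8 to 76 in Myf5 cells, 70.7 to 101 in myogenin cells and 46.6 to 63.3 in hrGFP cells. The Myf5 probe set had 49 to 85.1 in MyoD cells, 38.8 to 85.5 in Myf5 cells, 50.6 to 86.4 in myogenin cells and 44.2 to 117 in hrGFP cells. Neither was brighter in the cells given its own factor. Their differences, 0.20 ± 0.23 and -0.16 ± 0.31, did not pass, and neither did that of Myf6, the fourth family member, at -0.46 ± 0.37 (adjusted p = 0.945 for Myod1, 0.961 for Myf5 and 0.945 for Myf6). Viral transcripts may lack the stretch to which these probes bind, so the readings check no label. Mef2c, a partner of the family in muscle genes, differed by 0.77 ± 0.30 (adjusted p = 0.899), and 0 of the 16 measured genes of the myogenic factor list were called, with 5 higher and 0 lower at an unadjusted p under 0.05.

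**Figure D3:**
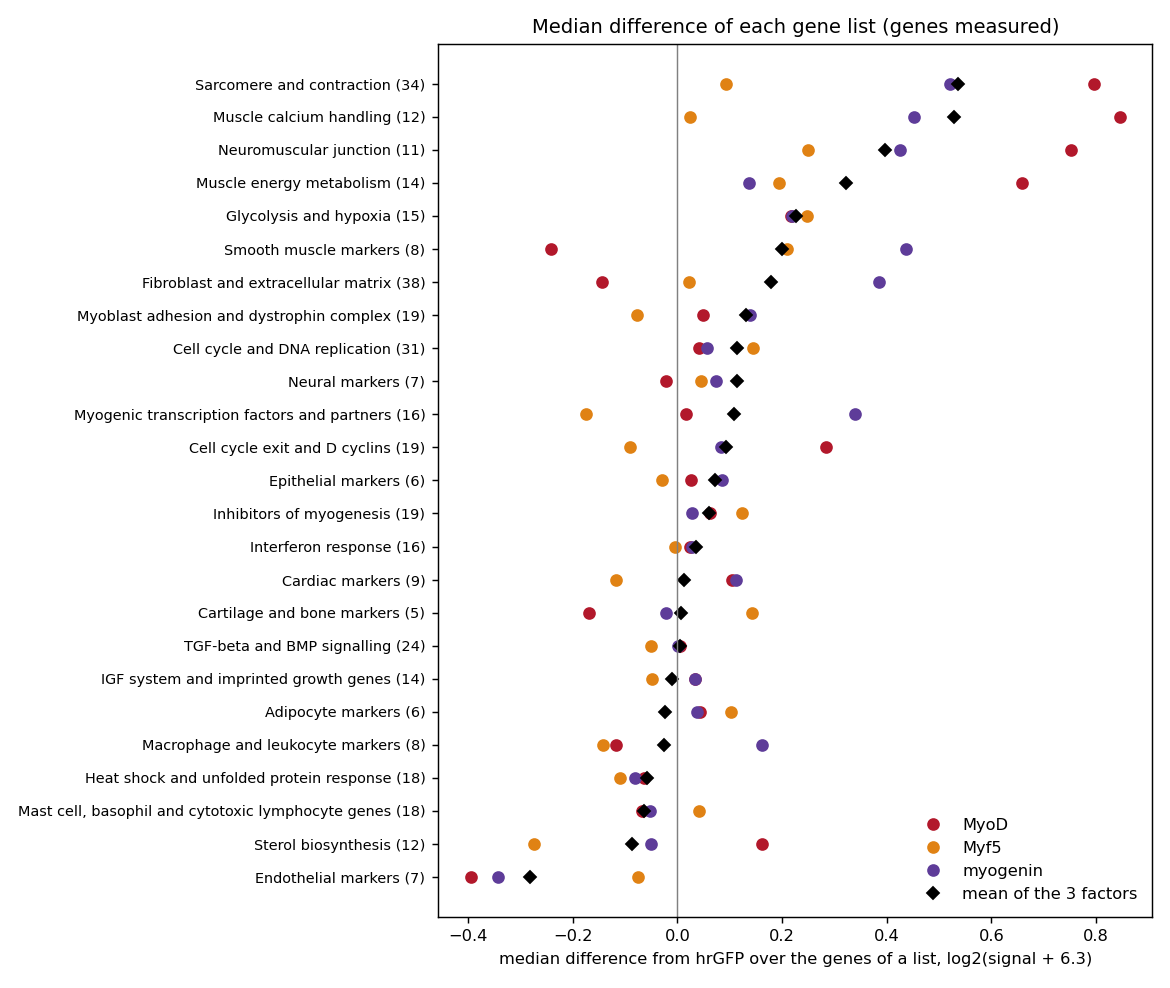
Median difference from hrGFP on the log2(signal + 6.3) scale over the measured genes (in parentheses) of each of 25 lists, for MyoD, Myf5, myogenin and their mean. The sarcomere, calcium handling, neuromuscular junction and muscle energy metabolism lists have the highest medians, 0.32 to 0.54 for the mean of the factors, and in each the median for MyoD is the highest.

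Among the 25 lists, the 4 with the highest medians were sarcomere, calcium handling, neuromuscular junction and muscle energy metabolism, and their medians were above 0 under all 27 alternatives. The other lists lay between -0.28 and 0.23, among them 2 more lists of muscle genes, the myogenic transcription factors at 0.11 and myoblast adhesion at 0.13, and their calls were Itga7 and Mcpt8. Cell cycle and DNA replication, a list of genes of dividing cells, had 0 of 31 called, 0 at an unadjusted p under 0.05 and a median of 0.11. The inhibitors of myogenesis had 0 of 19 called, 2 higher and 0 lower at an unadjusted p under 0.05 and a median of 0.06, and Dll1, a Notch ligand among them, differed by 1.65 ± 0.45 (adjusted p = 0.559). The IGF system and imprinted genes had 0 of 14 called, with 3 higher and 2 lower at an unadjusted p under 0.05. Lists hold only probe sets with 1 symbol. This count therefore leaves out 93028_at, annotated to Mir675 and H19, and 100566_at, annotated to Tmem119 and Igfbp5, both called higher. TGF-beta and BMP signalling had 0 of 24 called, with 3 higher and 0 lower at an unadjusted p under 0.05. Because the cells were mixed, a rise in a few cells and a smaller rise in all of them cannot be told apart, nor can fewer cells of a kind and less RNA per cell.

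For some of the called genes the size of the difference from hrGFP was not the same in the 3 factor groups. The arrays may not read how much of each factor was made, and its part was not tested. For myogenin, batch and group cannot be told apart. Of the 13 called probe sets, 5 differed among MyoD, Myf5 and myogenin in the test of the factors against each other, which the hrGFP arrays entered through the normalization and the estimate of the spread, and all 5 were highest with MyoD. Over the array 22 probe sets (0.177%) differed, 1090 (8.77%) at an unadjusted p, and 10 of the 22 had 3 differences from hrGFP of the same sign. Taken 1 factor at a time, with the 3 hrGFP arrays shared by all 3 comparisons, 36 probe sets (0.29%) were called with MyoD, 35 of them higher (0.282%); 2 (0.0161%) with Myf5, 1 higher (0.00805%); and 13 (0.105%) with myogenin, 10 higher (0.0805%). For the 8 called probe sets that did not pass the test among the factors, some pairwise differences were large and some intervals wide. MyoD minus Myf5 was 3.62 (95% interval 2.16 to 5.07) for Acta1 and 1.93 (95% interval 0.78 to 3.09) for 93028_at. It was -0.24 (95% interval -1.04 to 0.56) for Mcpt8 and, in a narrower interval, -0.02 (95% interval -0.38 to 0.35) for Asgr1. MyoD minus myogenin was 2.44 (95% interval 0.98 to 3.90) for Acta1. Without the MyoD arrays, the mean of Myf5 and myogenin gave 3 higher calls and 1 lower call. The lower call was neither 98420_at (adjusted p = 0.0572) nor Asgr1 (adjusted p = 0.175). The 3 higher were Chrnb1 at 3.03 (adjusted p = 0.00703), 93028_at at 3.12 (adjusted p = 0.0236) and Mcpt8 at 2.61 (adjusted p = 0.0239), while Acta1 at 3.16 (adjusted p = 0.175) and Tnnc1 at 2.03 (adjusted p = 0.223) kept their direction and missed the threshold.

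Without MyoD 5 and hrGFP 5, 23 probe sets were called, 19 higher and 4 lower, of which 10 were shared with the 12-array calls and 13 were not; 3 of the 12-array calls were lost, Actc1, Mylpf and Asgr1. All 23 moved the same way with every factor, a trait that a call on the mean favours, and 7 of them differed among the factors. The repeat kept only hrGFP 3 and hrGFP 4 of the control and MyoD 3 and MyoD 4 of the MyoD arrays. Lack of overlap was thus easier to meet than over 12 arrays. The share of all probe sets that met it in the repeat is not given, so the 2 counts are not alike. The 13 added included the muscle genes Chrng, Myog and Eno3, and the others, named after their values were seen, were Postn, Id2, Nudc, Dipk2a, Ugcg, Ddr1, 92722_f_at, Kitl, Klrd1 and 99605_at, the last 3 lower. Postn, a matrix protein of fibroblasts, had 329.9 to 889.6 in MyoD cells, 334 to 337 in Myf5 cells, 1008 to 1390 in myogenin cells and 108 to 552 in hrGFP cells; hrGFP 5 was the bright array of its group and MyoD 5 of its own. Its difference of 1.43 ± 0.40 over 12 arrays (adjusted p = 0.567) was 1.93 in the repeat (adjusted p = 0.00181). Id2 passed at 1.51 (adjusted p = 0.0253), Ddr1, a collagen receptor, at 0.95 (adjusted p = 0.0135) and Ugcg, glucosylceramide synthase, at 1.57 (adjusted p = 0.0476). Kitl, the ligand of the Kit receptor, fell, at -0.74 (adjusted p = 0.0409). Chrnb1 and 97519_at passed with each factor taken alone, and 59 probe sets differed among the factors.

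**Figure D4:**
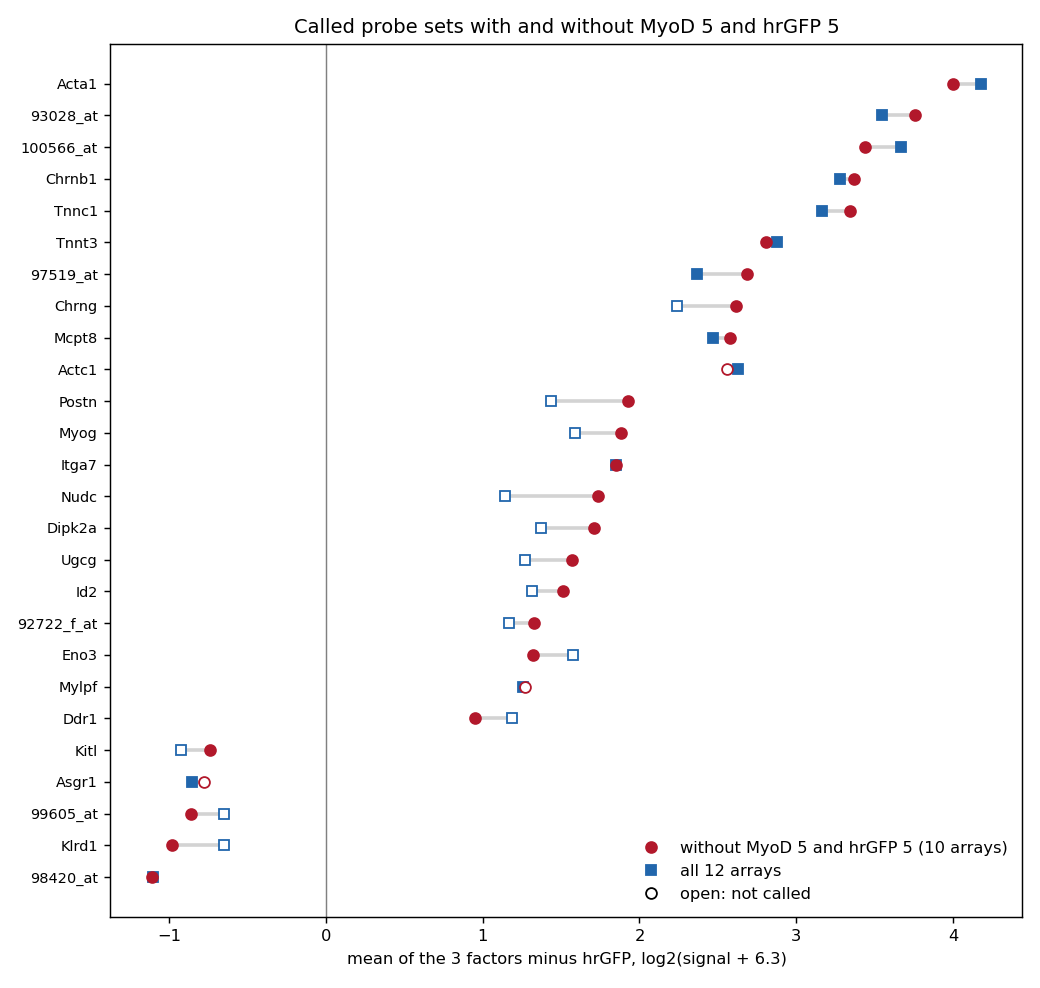
Mean of the 3 factors minus hrGFP on the log2(signal + 6.3) scale for the 26 probe sets called with 10 arrays (without MyoD 5 and hrGFP 5, circles) or with all 12 (squares); filled symbols are called and open ones are not. All 26 keep their sign, 10 are called both ways, and Acta1 and Chrnb1 move little.

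Within the first batch, with 2 arrays each of MyoD, Myf5 and hrGFP, the mean of MyoD and Myf5 minus hrGFP was 3.31 for Chrnb1, 2.38 for Mcpt8, 3.61 for Tnnc1, 2.96 for Tnnt3 and 2.84 for 97519_at, each called. Acta1 at 4.11, Itga7 at 1.61 and Mylpf at 1.43 kept their direction and missed the threshold, as did Asgr1 at -0.73 and 98420_at at -1.11. With the myogenin arrays left out and batch as a block, all 11 higher probe sets were called. The other 2 batches gave no value of their own, 1 with a single array per group and 1 with myogenin arrays only. With no pseudocount the differences of dim probe sets were larger, 4.34 for Actc1, 4.66 for Tnnt3, 3.07 for Mylpf, 4.77 for Chrnb1 and 5.30 for Acta1.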

How the data were processed

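RNA from 12 samples labelled by group and replicate was measured on 12 MG_U74Av2 arrays, 3 per group. The deposited values were intensity signals, 1 for each probe set on each array; the submitters' processing notes name MAS5, with no scaling or version given in the sources used here. Other information, chip lot and hybridization day, came from each array's deposited scan record and gave the array batches. Trimmed mean signals differed 2.5-fold between arrays, so log2(signal + 6.3) values, the pseudocount being the 25th percentile, were quantile-normalized in limma 3.58.1 (R 4.3.3, statmod 1.5.0). One linear model gave each of the 4 groups its own mean over the 12 arrays (8 residual degrees of freedom, eBayes with a variance trend). No filter on low signals was used for the tests; a signal of 15, the 40th percentile, served to describe levels. Contrasts were the mean of the 3 factors minus hrGFP, each factor minus hrGFP, and a moderated F-test among the factors. P-values were adjusted by Benjamini-Hochberg over 12422 probe sets. The step was tested on simulated data. For arrays, their number limits the precision.

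The platform annotation gave 1 gene symbol for 10833 probe sets, several for 396 and no entry for 1193. RefSeq held the gene numbers of 10817 of the 10833, and a probe set goes by a gene name only where there is 1 symbol. For a list, the probe set of highest mean stands for each gene. Named by rule were called genes whose 9 factor arrays did not overlap hrGFP, called genes most unequal among the factors, the 4 myogenic factors, up to 4 members per list, and the 5 largest uncalled falls without overlap; other names are marked. The comparison, the 25 gene lists and the rule were chosen with earlier results of these data known. Replicate numbers were not used to pair the arrays in the main model, as the labels do not say what a number shares. Over 12 same-numbered pairs, the correlation of deviations from group means ran from -0.18 to 0.76, and 5 exceeded 0.1. The 3 pairs of MyoD with hrGFP were among them, and 7 of the 9 MyoD, Myf5 and hrGFP arrays correlated best with their own number. The highest value, 0.76, was that of MyoD 5 with hrGFP 5, the 3'-biased arrays, which also shared a batch. The main model leaves these correlations out, and results with replicate number as a block are given below. In that block numbers 2 and 6 each held only a myogenin array, so myogenin rested on myogenin 3 alone. Alternatives were other normalizations and pseudocounts, a filter, batch and replicate blocks, other variance models and arrays or groups left out. Promoters were RefSeq windows found for 8 of 12 genes looked up.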

Additional observations from a re-analysis of the deposited data

Results flagged for a closer look

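The differences from hrGFP were not the same with MyoD, Myf5 and myogenin for 5 called probe sets, by limma's moderated F-test among the factors over all 12422 probe sets. They were Mylpf (adjusted p = 0.00463), Actc1 (adjusted p = 0.00477), 100566_at (adjusted p = 0.00518), Tnnc1 (adjusted p = 0.00518) and Tnnt3 (adjusted p = 0.0202). In each the difference was largest with MyoD, and MyoD minus Myf5 was 1.92 (95% interval 1.45 to 2.39) for Mylpf, 4.62 (95% interval 3.51 to 5.74) for Actc1, 3.54 (95% interval 2.45 to 4.62) for 100566_at, 3.86 (95% interval 2.90 to 4.82) for Tnnc1 and 3.44 (95% interval 2.42 to 4.46) for Tnnt3, on the log2(signal + 6.3) scale. Groups of 3 arrays were not tested for single outlying arrays.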

How the results depend on the processing

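Against 11 higher and 2 lower calls, 1 probe set passing with every factor, 22 differing among factors, 7 named genes and 12 moving the same way, the following counts differed by over 1.5 times. The lower calls were 1 with median centring, a pseudocount of 16, no variance trend, without the Myf5, MyoD or myogenin arrays and without the myogenin arrays with batch as a block, and 0 with the filter, within the first batch and with the replicate block. Without MyoD 5 and hrGFP 5 the counts were 19 higher, 4 lower, 2 with every factor, 59 among factors and 23 the same way. Without the MyoD arrays they were 3 higher, 2 among factors, 2 named and 4 the same way. Without the Myf5 arrays 17 were higher and 10 differed between the other 2 factors. Probe sets passing with every factor were 0 without normalization and with the replicate block, and 2 without the myogenin arrays with batch as a block. Those differing among factors were 14 with no pseudocount, 14 without the myogenin arrays, 11 within the first batch and 8 with the replicate block, whose 11 higher calls shared 10 with the main ones and left out Mylpf (adjusted p = 0.0685), as the lower calls did 98420_at (adjusted p = 0.146) and Asgr1 (adjusted p = 0.357); 7 of 9 MyoD, Myf5 and hrGFP arrays correlated best with their own replicate number. The replicate block left myogenin resting on myogenin 3 alone. The best-correlated pair of the same number, MyoD 5 with hrGFP 5, was the 3'-biased one. Named genes called were 4 within the first batch. With the 9 factor arrays as 1 group, so that differences among factors count as error, 4 higher probe sets and 3 named genes were called. Leaving out 1 array in turn gave 5 to 19 higher (without hrGFP 4 and MyoD 5), 1 to 8 lower (8 without hrGFP 3), 0 to 2 with every factor, 10 to 33 among factors (without MyoD 4 and hrGFP 5), 3 to 7 named and 6 to 18 the same way. Chrnb1 was called under 27 of 27 alternatives, Mcpt8 under 26, Tnnc1 and Itga7 under 25, Tnnt3 under 23, Acta1 under 22, Mylpf under 16 and Actc1 under 15. Uncalled values changed sign: Myf5 to 0.10 without MyoD 5 and hrGFP 5 and over -0.47 to 0.18 with 1 array left out, Itga7 on 160086_at to -0.026 with median centring, and Myod1 to -0.0040 without the myogenin arrays, with or without the batch block. The cause was not tested. With at most 3 hrGFP arrays in a comparison, and fewer without hrGFP 5 and within the first batch, 1 hrGFP array decides several calls. Signals near the pseudocount limit what the dim genes can show.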
